A study of Mus musculus with 12 samples.

Results

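Mpo, Elane, Prtn3 and Ctsg, the classical primary (azurophil) granule genes, were followed by name through 12 bulk RNA-seq libraries of mouse basophil-lineage cells. They are 4 of the 32227 genes in the deposited count table, and all 4 were among the 15083 genes that passed the filter on low counts. The libraries formed 4 groups of 3, all from C57BL/6J wild-type mice. Basophil progenitors (BaPs) were sorted from the bone marrow (BM) as CD200R3+ cKit- cells that were CD34+ and high in CLEC12A. Pre-basophils, which the sample labels call immature basophils, were CD34- BM basophils with high CLEC12A and low CD9. Mature basophils had low CLEC12A and high CD9 and were taken from the BM and from the spleen. The cells were unstimulated, each library was a pool of several animals, and the sort itself used the products of Cd34, Kit, Clec12a, Cd9 and Cd200r3.

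Primary granules are the first granules formed in the neutrophil lineage, at the promyelocyte stage. Mpo encodes myeloperoxidase, a haem enzyme that makes hypochlorous acid from hydrogen peroxide and chloride. Elane, Prtn3 and Ctsg encode the serine proteases neutrophil elastase, proteinase 3 and cathepsin G, which are stored in the granule as active enzymes after removal of a short propeptide. Transcription of these genes is brief in neutrophil precursors and ends before the secondary granules form, so that mature neutrophils carry the proteins with little of the RNA. Basophils are granulocytes with their own set of granule proteases, such as Mcpt8 and Prss34.

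In GENCODE M21 on GRCm38, Mpo (ENSMUSG00000009350.13) lies on the plus strand of chr11:87793581-87804413. Prtn3 (ENSMUSG00000057729.12, chr10:79874476-79883174) and Elane (ENSMUSG00000020125.7, chr10:79886247-79888215) are neighbours on the plus strand, with 3.1 kb between them. Ctsg (ENSMUSG00000040314.2) lies on the minus strand of chr14:56099881-56102574, 14.6 kb from the basophil protease gene Mcpt8. A gene model on the opposite strand overlaps Mpo (Gm11505) and another overlaps Prtn3 (Plppr3). The methods and labels do not say whether reads were counted by strand, so reads of each such pair cannot be told apart with certainty. Gm11505 had 107 counts over the 3 BaP libraries, against 19256 for Mpo. Plppr3 had 148 counts there, against 781 for Prtn3.

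The letters GAGGAA, a common core of sites bound by the myeloid factor PU.1, occurred in the 250 bases before the RefSeq start of all 4 genes (GRCm38.p6). Either strand was searched, and 23.3% of 32851 promoters of the same length held these letters. The stretches around the match are shown because this was the one searched motif that the 4 genes shared. Each is written 5′ to 3′ on the strand of its gene, with the matched letters in capitals.
Mpo, chr11:87793548-87793577, plus strand, upstream of the gene: tgtggagagagaGAGGAAgttgcctttgtc
Elane, chr10:79886215-79886244, plus strand, upstream of the gene: tcgtgtcccaggGAGGAAgtagggctgtgg
Prtn3, chr10:79879560-79879589, plus strand, in an intron of the longer GENCODE model: ccaaactggaagGAGGAAgtgggacccaca
Ctsg, chr14:56102773-56102802, minus strand, upstream of the gene: ctcccagaaggaGAGGAAgaaaaggaagta
Mpo held a further match farther upstream. TAACNG, the core recognised by MYB, occurred before Mpo and Elane and in 19.8% of all promoters. TATAAA (12.4% of promoters) occurred among the 4 genes before Ctsg only, on the opposite strand and 237 bases before the start. TGTGGT, the core of RUNX sites (14.0%), also occurred before Ctsg only, on the opposite strand and 79 bases before the start. TTGCNNAA, a C/EBP core (9.56%), and AGATAA, which Gata2 and its relatives bind (9.99%), were in none of the 4 windows. Matches are descriptions of the letters and say nothing of binding.

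Library totals ran from 3596108 to 8151030 counts, and a count of 0 allowed up to 3 counts of a library, or 0.290 to 0.955 CPM (counts scaled to a common library size, after TMM normalization). One library stood apart. BaP replicate 3 had summed levels of 8 basophil markers of 24304 CPM, against 61219 and 66243 in the other BaP libraries and 59010 to 67842 in pre-basophils. Its 11 lymphocyte markers summed to 641 CPM, against 47.6 and 49.0 in the other BaP libraries and 47.8 to 61.4 in pre-basophils. Its 8 monocyte markers summed to 304 CPM, against 41.8 and 47.6, and its 8 erythroid and megakaryocyte markers to 1907 CPM, against 416 and 421. Its 9 eosinophil markers summed to 223 CPM, against 70.7 and 42.0 in BaP replicates 1 and 2. The basophil label was checked with Mcpt8 and Prss34, whose lowest group means were 653 and 921 CPM in spleen mature basophils, whereas the mast cell genes Mcpt4, Cma1, Tpsb2 and Mrgprb1 had group means of at most 2.17 CPM. Of 10 progenitor markers 9 were tested, and 5 were called higher and 1 lower in BaPs than in pre-basophils, with a median log2 fold change of 1.35. Of all genes tested, 2.79% were called higher and 4.29% lower. The Cd27 call was lost in 7 of 13 alternatives, among them that without BaP replicate 3. The lower marker was Igsf6, at 82.0, 175, 499 and 387 CPM from BaPs to spleen mature basophils. The 10 markers summed to 541 to 694 CPM in BaPs and 968 to 1049 CPM in BM mature basophils. Most of this sum came from Fcgr3 and Igsf6, with means of 322 and 82.0 CPM in BaPs and 451 and 499 CPM in BM mature basophils. Sox4 had means of 84.8, 26.5, 7.36 and 6.90 CPM from BaPs to spleen mature basophils. Cd34 and Kit, whose products were used in the sort, had 27.1, 10.8, 7.38 and 8.15 CPM and 16.8, 2.62, 0.502 and 0.806 CPM. The BaP mean of Kit leaned on replicate 3, with 11.5, 7.07 and 31.8 CPM in replicates 1 to 3, against at most 3.35 CPM in pre-basophils. Flt3, the progenitor marker not tested, had 0, 0.471 and 12.9 CPM in the same BaP libraries.

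Together the 4 genes held 0.177% to 0.469% of a library's counts in BaPs and 0.168% to 0.211% in pre-basophils. Among mature basophils their share was 0.00836% to 0.0188% in the BM and 0.00474% to 0.00576% in the spleen. Per kilobase of exon, the order of mean levels was Ctsg, Mpo, Prtn3 and Elane in each of the 4 groups. In BaPs the means were 1740 ± 880 CPM per kb for Ctsg, 366 ± 184 for Mpo, 25.5 ± 3.89 for Prtn3 and 10.8 ± 2.01 for Elane (SD, n = 3). The order was the same with the length of the longest coding transcript. Ctsg and Mpo were thus abundant transcripts in the 2 early groups, whereas Elane and Prtn3 were far lower.

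Mpo was highest in BaPs, with 1792, 1402 and 562 CPM in replicates 1 to 3. Pre-basophils had 623, 441 and 459 CPM. Mature basophils had 57.9, 61.1 and 22.3 CPM when taken from the BM and 12.5, 12.5 and 16.7 CPM when taken from the spleen. BaP replicate 3 fell within the range of the pre-basophil libraries, so those groups overlapped, and the other neighbouring groups did not. The group means were 1252 ± 628, 508 ± 100, 47.1 ± 21.6 and 13.9 ± 2.44 CPM (SD, n = 3). In these bulk samples, fewer cells that carry a transcript and less of it per cell cannot be told apart.

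Ctsg did not separate the 2 early groups. BaPs had 2489, 2135 and 767 CPM, and pre-basophils 1480, 1191 and 1211 CPM. The level in mature basophils of the BM was 140, 138 and 75.6 CPM, and in those of the spleen 34.6, 47.0 and 39.6 CPM. The BaP and pre-basophil libraries therefore overlapped and the mature groups stood apart from them and from each other. Group means were 1797 ± 909, 1294 ± 161, 118 ± 36.6 and 40.4 ± 6.27 CPM (SD, n = 3).

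Prtn3 separated BaPs from pre-basophils in all 3 libraries. It had 46.6, 49.3 and 36.5 CPM in BaPs against 14.8, 9.98 and 7.04 CPM in pre-basophils. Mature basophils had 1.27, 2.50 and 0.936 CPM in the BM and 1.12, 0.825 and 0.797 CPM in the spleen, on totals of 19 and 18 counts. The 2 mature groups overlapped.

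Elane was the least abundant. It had 10.3, 12.7 and 8.81 CPM in BaPs, a total of 188 counts, and 5.03, 3.16 and 2.56 CPM in pre-basophils, a total of 47 counts. Each BM mature library held 1 Elane count, and the spleen mature libraries held 0, 1 and 1, all under the limit that a count of 0 allows. BaPs and pre-basophils did not overlap, and no difference between the mature groups was detectable at this depth.

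**Figure D1:**
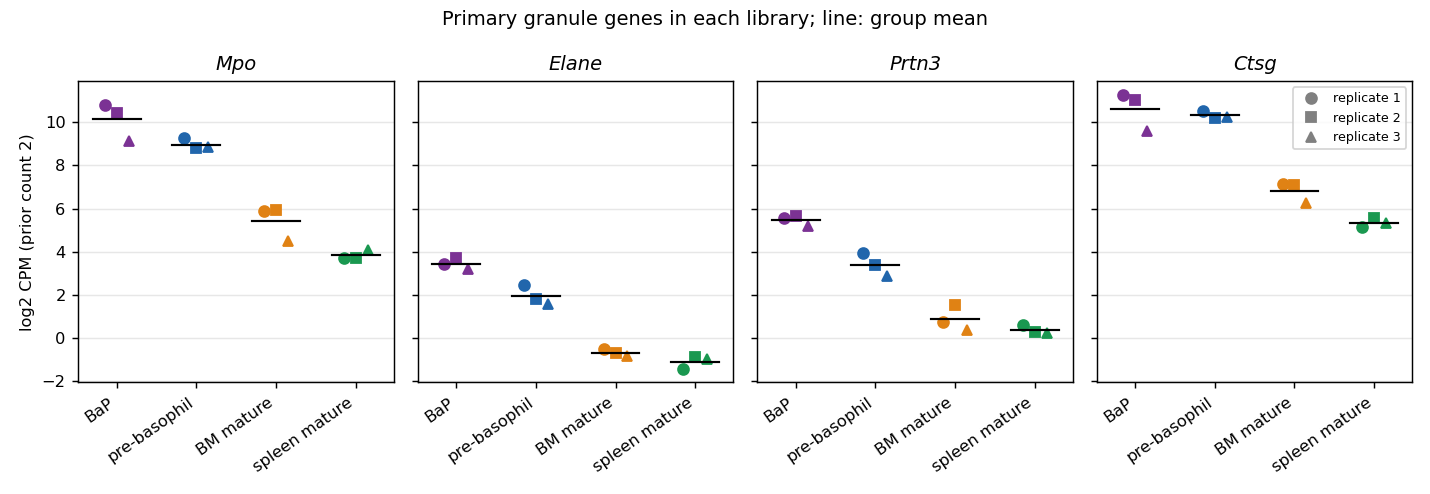
Level of Mpo, Elane, Prtn3 and Ctsg in each of the 12 libraries, as log2 CPM with a prior count of 2. Symbols are replicates 1 to 3 and lines are group means. All 4 genes were higher in each BaP and pre-basophil library than in any mature library, and BaP replicate 3 was the lowest BaP library for each gene.

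The first comparison asked how CD34+ BaPs differed from CD34- pre-basophils. Prtn3, Elane and Mpo were higher in BaPs, and Ctsg was not called. In edgeR's quasi-likelihood test with Benjamini-Hochberg adjustment over all genes tested, the log2 fold change was 2.08 ± 0.26 for Prtn3 (SE, adjusted p = 0.000638), 1.58 ± 0.32 for Elane (adjusted p = 0.00984) and 1.30 ± 0.37 for Mpo (adjusted p = 0.0496). For Ctsg it was 0.47 ± 0.33 (adjusted p = 0.432). Thus 3 of the 4 genes passed, where 2.79% of all genes tested were called higher in BaPs. The Mpo call was just inside the threshold. It was lost in 9 of 14 alternatives, with an adjusted p of up to 0.182. These included removal of BaP replicate 1 (adjusted p = 0.137) or 2 (0.0873) or of any pre-basophil library (0.0947, 0.182 and 0.164). The Elane call was lost without pre-basophil replicate 2 (0.0616) or 3 (0.0700), and the Prtn3 call was kept in all 14.

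BaP replicate 3 weighed on these values. Without it all 4 genes were called, with log2 fold changes of 2.23 for Prtn3 (adjusted p = 1.43e-05), 1.73 for Elane (0.00254), 1.66 for Mpo (0.000219) and 0.85 for Ctsg (0.00558), in a fit that called 1831 genes in place of 1068. Set against the summed basophil markers of its own library, a sum made up mostly of the proteases Prss34 and Mcpt8, BaP replicate 3 lay close to the other BaP libraries for Mpo, with 23.1 CPM per 1000 CPM of markers against 27.0 and 22.9. Pre-basophils had 7.48 to 9.18 on this scale. The values for Ctsg were 37.6, 34.9 and 31.6 in BaPs and 19.8 to 21.8 in pre-basophils, so the groups that overlapped in CPM did not overlap here. For Prtn3 the scaled values were 0.703, 0.805 and 1.5 in BaPs and 0.115 to 0.218 in pre-basophils, and for Elane 0.155, 0.208 and 0.363 against 0.0419 to 0.0742, with BaP replicate 3 the highest for both. This scaling was chosen after the data were seen and carries no test, and the part of RNA from other cells in the CPM values of BaP replicate 3 was not tested.

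The second comparison was between pre-basophils and BM mature basophils, the step that separates the CLEC12A-high from the CLEC12A-low cells of the marrow. All 4 genes were higher in pre-basophils, where 16.3% of genes tested were called higher. The log2 fold change was 3.46 ± 0.36 for Ctsg (SE, adjusted p = 1.69e-05), 3.45 ± 0.41 for Mpo (4.79e-05) and 2.74 ± 0.37 for Prtn3 (0.000116), by edgeR's quasi-likelihood test. Ctsg, Elane and Mpo ranked 51, 30 and 55 from the highest log2 fold change among the genes tested, and Prtn3 ranked 199. Elane rested on 3 counts in BM mature libraries. Its ratio of summed counts per library size was 14.0, with a 95% interval from counting of 4.51 to 70.4, and its fitted log2 fold change of 3.73 ± 0.54 (adjusted p = 0.000224) depends on the prior count. All 4 calls were kept in all 14 alternatives. The summed basophil markers were also lower in BM mature libraries, at 8843 to 11114 CPM, mostly through Prss34 (45144 to 5065 CPM in the group means) and Mcpt8 (11892 to 1731 CPM). Of the 8 markers, 5 were called higher in pre-basophils at this step by edgeR's test. Besides the 2 proteases these were Cpa3 (log2 fold change 1.61 ± 0.26, adjusted p = 0.000561), Ms4a2 (0.80 ± 0.23, 0.0180) and Fcer1a (0.80 ± 0.25, 0.0294). Only Itga2 (CD49b) was called the other way, with a mean rising from 84.6 to 173 CPM (-1.03 ± 0.21, 0.00277). Cd200r3 and Il3ra were not called. Since the drop in the sum came mostly from Prss34 and Mcpt8, scaling by it at this step is close to scaling by these 2 proteases. Per 1000 CPM of those markers, Mpo was at 7.48 to 9.18 CPM in pre-basophils and 2.52 to 5.50 in BM mature basophils, and Ctsg at 19.8 to 21.8 and 8.55 to 12.6, so that neither overlapped. Prtn3 was at 0.115 to 0.218 and 0.106 to 0.225 on that scale and did overlap.

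The third comparison set the spleen against the BM among mature basophils. Mpo and Ctsg were lower in the spleen, with log2 fold changes of -1.73 ± 0.42 (SE, adjusted p = 0.0262) and -1.54 ± 0.35 (adjusted p = 0.0206) in edgeR's test. Thus 2 of the 4 genes passed, where 4.67% of genes tested were called lower in the spleen. Prtn3, at -0.74 ± 0.49 (adjusted p = 0.372), and Elane, at a count ratio of 0.419 with an interval of 0.0350 to 3.66, were not called. Both calls were lost without BM mature replicate 1 (adjusted p = 0.102 for Mpo and 0.0882 for Ctsg), BM mature replicate 2 (0.101 and 0.0723), spleen mature replicate 1 (0.0750 and 0.0665) or spleen mature replicate 3 (0.0814 and 0.0886). The Mpo call was also lost without spleen mature replicate 2 (0.0840). Per 1000 CPM of basophil markers, which were themselves at 3770 to 4160 CPM in the spleen, the groups overlapped for Mpo, at 3.01 to 4.37 CPM in the spleen and 2.52 to 5.50 in the BM, and for Ctsg, at 9.17 to 11.3 and 8.55 to 12.6. The marker sum was lower in the spleen mostly through Prss34 (5065 to 921 CPM in the group means) and Mcpt8 (1731 to 653 CPM). Scaling by it is therefore close to scaling by these 2 proteases at this step too. Cd200r3 and Il3ra were not called here.

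**Figure D2:**
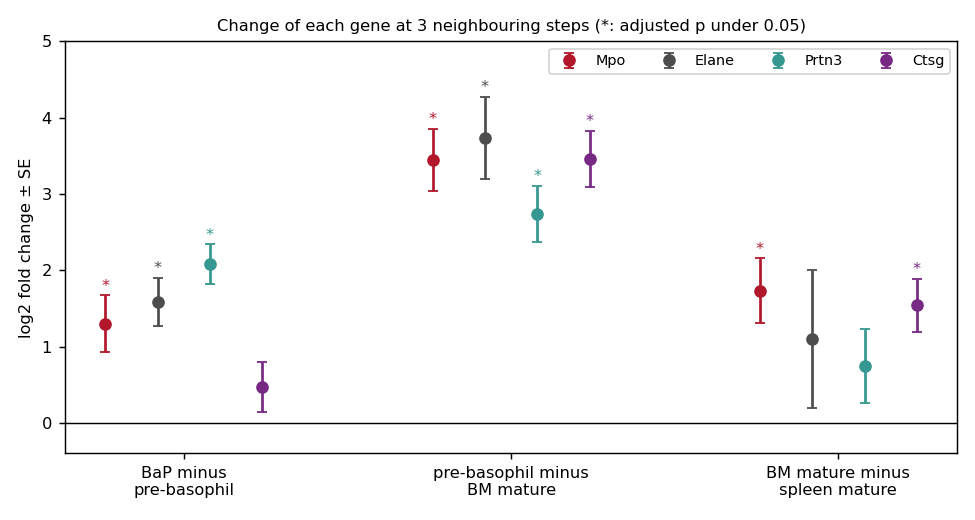
Log2 fold change of each gene, with its SE, at 3 neighbouring steps from BaPs to spleen mature basophils, each written as the earlier group minus the later one. An asterisk marks an adjusted p under 0.05. All values are above 0, the step from pre-basophils to BM mature basophils was the largest for each gene, and the Elane values at the last 2 steps rest on 3 counts or fewer in a mature group.

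Over the whole span, BaPs exceeded BM mature basophils by log2 fold changes of 4.75 for Mpo (adjusted p = 1.75e-06), 4.82 for Prtn3 (2.24e-07) and 3.93 for Ctsg (2.31e-06), and spleen mature basophils by 6.48 (1.58e-07), 5.56 (4.09e-08) and 5.47 (1.59e-07). For Elane the count ratio of BaPs to BM mature basophils was 41.7 (95% counting interval 14.0 to 204) and that to spleen mature basophils was 99.4 (27.1 to 827). All 4 genes were called in both comparisons by edgeR's test, where 25.3% and 29.8% of genes tested were called higher in BaPs. A test for any difference among the 4 groups called them all, as it did 57.8% of genes tested. These comparisons share libraries with the 3 steps above.

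Ratios of reads within a library need no scaling between libraries, and they were taken for Ctsg and Prtn3 against Mpo. Elane, with 3 counts or fewer in each mature group, was left out. There were 1.39, 1.52 and 1.36 Ctsg reads per Mpo read in BaPs and 2.38, 2.70 and 2.64 in pre-basophils. BM mature basophils had 2.42, 2.26 and 3.39, and spleen mature basophils 2.77, 3.75 and 2.37. The 3 BaP libraries, replicate 3 included, thus lay below the other 9, whose groups overlapped. In an exact permutation test among the 4 groups (369600 arrangements), the log ratio differed with p = 0.0135, or 0.0270 after adjustment over 2 ratios. BaPs against pre-basophils alone gave p = 0.1, the smallest that 3 against 3 allows in a two-sided exact permutation test (adjusted p = 0.2 over 6 pairs). A replicate block was also run, with libraries exchanged only within a replicate number. The labels do not say that these numbers pair libraries, and the data give only a hint of it for the marrow. Under the block, the permutation test among the 4 groups gave an exact p of 0.0469 (adjusted p = 0.0573, 13824 arrangements). That among the 3 marrow groups gave 0.0833 (adjusted p = 0.167), so the difference did not hold after adjustment under the block.

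For Prtn3 the ratio to Mpo gave an exact permutation p of 0.0288 among the groups (adjusted p = 0.0288), which became 0.0573 under the replicate block (adjusted p = 0.0573) and 0.167 in the marrow groups alone. Its means were 0.0420 ± 0.0204 reads per Mpo read for BaPs, 0.0206 ± 0.00458 for pre-basophils, 0.0350 ± 0.0113 for mature basophils of the BM and 0.0677 ± 0.0211 for those of the spleen (SD, n = 3), so the pre-basophils had the lowest mean. The mature values rest on 4 to 10 Prtn3 counts a library in the BM and 5 to 7 in the spleen. The ratio of summed counts had 95% counting intervals of 0.0208 to 0.0550 in the BM and 0.0375 to 0.103 in the spleen. In pre-basophils the interval was 0.0167 to 0.0236. The BM mature and pre-basophil intervals overlapped, which is not a test of their difference, and the spleen interval lay above that of pre-basophils. The BaP mean leaned on replicate 3, and without any 1 of the 6 libraries the log2 difference between BaPs and pre-basophils ran from 0.58 to 1.24. For Ctsg to Mpo the same range was -0.91 to -0.81.

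**Figure D3:**
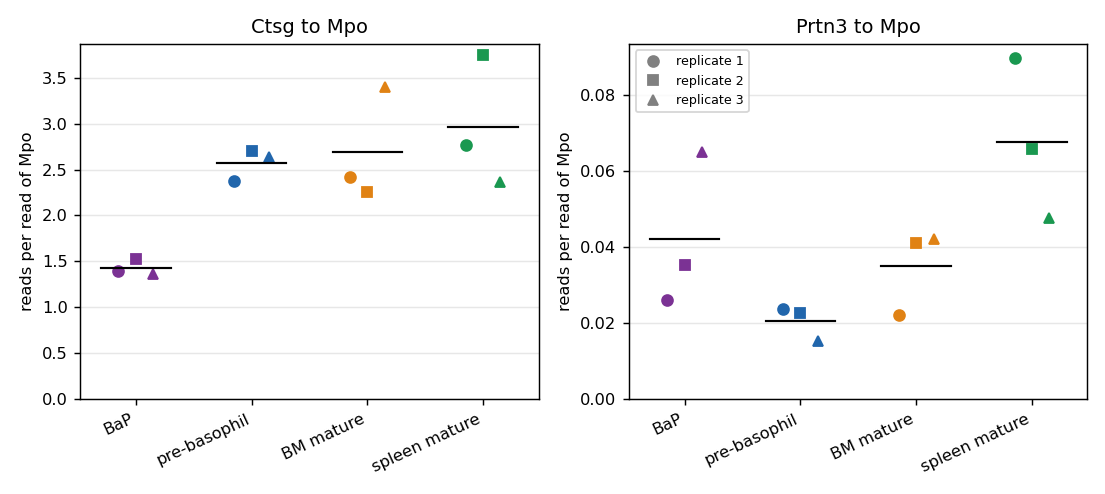
Reads of Ctsg (left) and Prtn3 (right) per read of Mpo in each library, on linear axes from 0, with group means as lines. The 3 BaP libraries lie between 1.36 and 1.52 for Ctsg, below the other 9, and pre-basophils have the lowest mean for Prtn3.

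Markers of neutrophils moved with the genes between some groups. Of 12 late neutrophil markers, which include the secondary granule genes Ltf, Camp, Ngp and Lcn2, 9 were higher in pre-basophils than in BM mature basophils and 1 was lower, with a median log2 fold change of 3.74 against 0.00 over all genes tested. Of all genes tested, 16.3% were called higher and 11% lower at that step. Lcn2 (lipocalin 2) had a log2 fold change of 3.89 ± 0.35 (SE, edgeR adjusted p = 5.80e-06) and Ltf (lactoferrin) of 5.19 ± 1.03 (0.00207, but 0.101 with limma-voom). The exception was Cxcr2, at -1.49 ± 0.15 (1.38e-05). The 12 markers summed to 446 to 2028 CPM in pre-basophils. Among mature basophils they summed to 261 to 297 CPM in the BM and 244 to 255 in the spleen, where Cxcr2 alone had means of 188 and 187 CPM. Ly6g, a defining neutrophil marker, had means of 2.69, 2.90, 0.231 and 0.151 CPM in the 4 groups from BaPs to spleen.

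Between the 2 early groups, none of the 12 neutrophil markers was called higher in BaPs and Cxcr2 was called lower, with a median log2 fold change of -0.12. Of all genes tested, 2.79% were called higher and 4.29% lower in BaPs, so few calls among 12 genes lay near those shares. Within each group the libraries ran in another order than for Mpo. The marker sum was 197, 756 and 2177 CPM in BaP replicates 1 to 3, where Mpo was at 1792, 1402 and 562 CPM. In pre-basophils it was 446, 964 and 2028 CPM, with Mpo at 623, 441 and 459 CPM. The library with the most neutrophil marker RNA therefore had the least Mpo in BaPs, and that with the least neutrophil marker RNA had the most Mpo in both groups. The part of neutrophil RNA in the difference between pre-basophils and mature basophils was not tested.

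**Figure D4:**
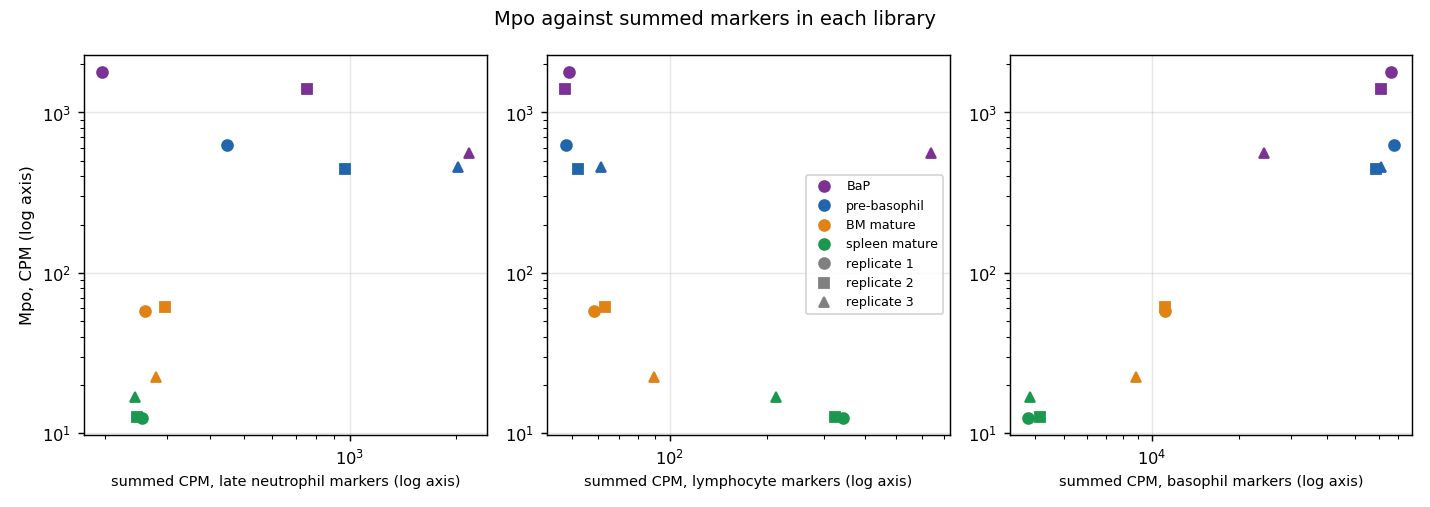
Mpo against the summed level of late neutrophil, lymphocyte and basophil markers in each library, in CPM on log axes. The early libraries spread over 197 to 2177 CPM of neutrophil markers with Mpo at 441 to 1792 CPM, and BaP replicate 3 lies apart at 641 CPM of lymphocyte markers and 24304 CPM of basophil markers.

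The other genes listed with primary granules and lysosomes, not all of which encode stored products, differed among themselves. Beside the counts of this and the next lists, 2.79% of all genes tested were called higher and 4.29% lower in BaPs than in pre-basophils, and 16.3% higher and 11% lower in pre-basophils than in BM mature basophils. Of 14 listed, 13 were tested, and none was called higher in BaPs than in pre-basophils while 2 were lower. In pre-basophils against BM mature basophils 5 were higher and 1 was lower, with a median log2 fold change of 0.39 against 0.00 over all genes. Ms4a3, a gene of granulocyte and monocyte progenitors, had 337 ± 157, 218 ± 29.4, 18.3 ± 9.05 and 6.01 ± 0.715 CPM from BaPs to spleen mature basophils. Its log2 fold change was 3.6 ± 0.40 at the step to BM mature basophils (edgeR adjusted p = 2.49e-05) and -1.58 ± 0.44 in spleen against BM (0.0437), the latter lost in 6 of 13 alternatives (up to 0.187), 5 of them without BM mature replicate 1 or 2 or any spleen mature library. Prss57, a further serine protease of primary granules that lies 95.3 kb from Elane, had 24.7 ± 14.1, 10.1 ± 1.68, 1.81 ± 1.25 and 0.711 ± 0.585 CPM. It rose with a log2 fold change of 2.57 ± 0.57 in pre-basophils over BM mature basophils (adjusted p = 0.00426), and the value of 1.28 ± 0.43 in BaPs over pre-basophils was not called (0.0907).

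Among the lysosomal members of that list, Arsb (arylsulfatase B) was higher in pre-basophils than in BM mature basophils, with a log2 fold change of 1.43 ± 0.18 (edgeR adjusted p = 8.22e-05), and lower in spleen than in BM, at -1.03 ± 0.19 (0.00744). Lyz2 (lysozyme) was higher in pre-basophils than in BM mature basophils, at 3.42 ± 0.55 (0.000455). In replicates 1 to 3 it had 38.7, 62.5 and 122 CPM in BaPs and 33.0, 60.1 and 136 CPM in pre-basophils. That is the library order of the summed late neutrophil markers in both groups, and the part of neutrophil RNA in these Lyz2 values was not tested. Ctsd, the lysosomal aspartic protease cathepsin D, ran the other way. Its mean climbed from 353 ± 14.0 CPM (BaPs) through 548 ± 33.2 (pre-basophils) and 998 ± 80.5 (BM mature) to 1436 ± 188 (spleen mature), and was called at each of the 3 steps (adjusted p of 0.00687, 0.000136 and 0.0190), the last call being lost without BM mature replicate 1 or spleen mature replicate 2 or 3 (up to 0.106).

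Of 13 genes for the synthesis, processing and storage of the granule proteins, none was called higher in BaPs than in pre-basophils and 3 were lower. In pre-basophils against BM mature basophils 4 were higher and 2 lower, with a median of -0.01. The chaperones of the endoplasmic reticulum that fold nascent Mpo were higher, with log2 fold changes of 2.20 ± 0.32 for Calr (calreticulin, edgeR adjusted p = 0.000218), 1.38 ± 0.23 for Pdia3 (0.000591) and 1.04 ± 0.15 for Canx (calnexin, 0.000245). Ctsc, the dipeptidyl peptidase that activates the serine proteases, had a value of 0.60 ± 0.23 and was not called (0.0689). Srgn, the core protein of the proteoglycan that holds granule proteases, was abundant, with a lowest group mean of 3342 CPM, and of the 3 steps was called in spleen against BM, at -0.91 ± 0.22 (0.0249), a call lost without BM mature replicate 1 or 3 or any spleen mature library (up to 0.103). Ncf1, a cytosolic part of the NADPH oxidase that supplies superoxide, the source of hydrogen peroxide for myeloperoxidase, was lower in the earlier group at both steps. It had log2 fold changes of -0.96 ± 0.13 in BaPs against pre-basophils (0.000819) and -0.78 ± 0.13 in pre-basophils against BM mature basophils (0.000487).

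Among inhibitors of these proteases, 5 of 8 listed genes were in the table and tested. Slpi, an inhibitor of elastase and cathepsin G, peaked in pre-basophils at 271 ± 13.2 CPM, against 113 ± 25 in BaPs, 113 ± 18.7 in the mature cells of the BM and 42.5 ± 10.3 in those of the spleen. It was called at each of the 3 steps (edgeR adjusted p of 0.00172, 0.000295 and 0.00221). Serpinb1a, a cytoplasmic inhibitor of the same proteases, was higher in pre-basophils than in BM mature basophils, with a log2 fold change of 1.2 ± 0.35 (0.0217), a call lost on removal of replicate 1 or 3 of the pre-basophils or replicate 2 or 3 of the BM mature basophils (up to 0.102).

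Of 12 transcription factors of early granulocytes, 11 were tested, and 2 were called higher and 1 lower in BaPs than in pre-basophils. In pre-basophils against BM mature basophils 3 were higher and 2 lower. Cbfb was higher there, at 0.72 ± 0.15 (edgeR adjusted p = 0.00308), and Cebpd lower, at -0.88 ± 0.29 (0.0388). The Cebpd call was lost in 6 of 14 alternatives (up to 0.181). Gata2, the most abundant of the list, was called at none of the 3 steps. Myb, a regulator of progenitor proliferation and of Mpo and Elane transcription, had 156 ± 28.8, 78.9 ± 15, 16.4 ± 4.32 and 6.45 ± 2.0 CPM from BaPs to spleen. It was called at each step, with log2 fold changes of 0.98 ± 0.22 (edgeR adjusted p = 0.0173), 2.28 ± 0.24 (1.98e-05) and, in spleen against BM, -1.34 ± 0.27 (0.0127). The first of these calls was lost without pre-basophil replicate 2 or 3 (up to 0.0954) and the last without BM mature replicate 1 or 2 or spleen mature replicate 3 (up to 0.0679). Irf8 was the other factor called higher in BaPs (adjusted p = 0.0475), a call lost without BaP replicate 3 and in 6 of the other 12 alternatives. Spi1, which encodes PU.1, was lower in BaPs than in pre-basophils, at -0.61 ± 0.17 (0.0425), and lower in pre-basophils than in BM mature basophils, at -0.56 ± 0.17 (0.0217). The first Spi1 call was lost in 6 of 14 alternatives (up to 0.161), among them the removal of any pre-basophil library, and the second in 4 of 14 (up to 0.118), among them the removal of replicate 1 or 3 of the pre-basophils or of BM mature replicate 2. Cebpa, at mean levels of 210 to 296 CPM, was called at none of the 3 steps. Spi1, Cebpa, Ctsc, Ly6g, Lcn2 and Cxcr2 were named after their values were seen.

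**Figure D5:**
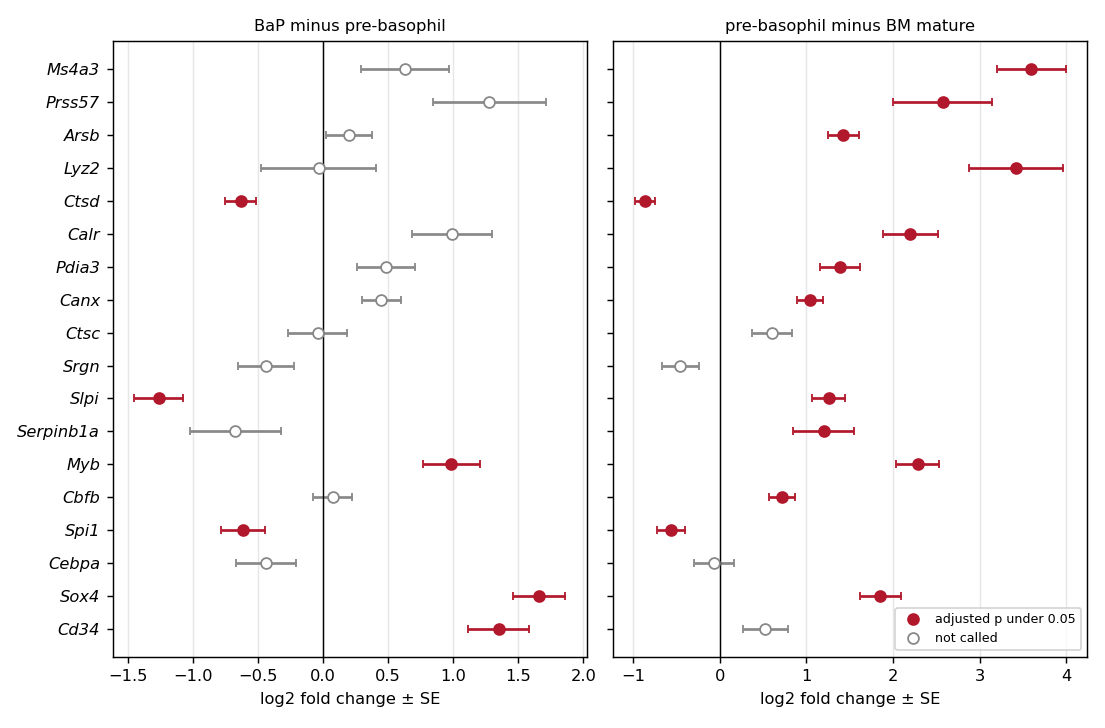
Log2 fold change with SE of listed companion genes in BaPs against pre-basophils (left) and pre-basophils against BM mature basophils (right). Filled red points passed an adjusted p of 0.05 and open grey points did not. Ms4a3, Prss57 and the chaperones were called on the right only, Myb and Sox4 were higher in the earlier group in both, and Ctsd and Spi1 were lower in both.

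Genes next to the 4 loci were compared at the same steps. Among 7 tested neighbours of Mpo, Tspoap1 (7.7 kb away) was higher in pre-basophils than in BM mature basophils, with a log2 fold change of 2.08 ± 0.26 (edgeR adjusted p = 7.49e-05), and Rnf43 (58.0 kb away) was lower, at -1.18 ± 0.18 (0.000327). Rnf43 was also lower in BaPs than in pre-basophils, at -0.83 ± 0.19 (0.0192), a call lost in 3 of 14 alternatives (up to 0.0976). Among 5 tested neighbours of Elane and Prtn3, Prss57 and Ptbp1 were higher in pre-basophils than in BM mature basophils, Ptbp1 at 0.93 ± 0.13 (0.000209), and Med16 (6.5 kb away) had values of 0.01 and -0.06 at the first and second step. Ptbp1 was also higher in BaPs than in pre-basophils, at 0.48 ± 0.13 (0.0401), a call lost in 5 of 14 alternatives (up to 0.178). In the Ctsg cluster of granzymes and mast cell proteases 3 of 13 listed genes were tested. Mcpt8 was higher in pre-basophils than in BM mature basophils, at 2.78 ± 0.25 (6.43e-06), and had -0.37 ± 0.24 in BaPs against pre-basophils (0.390). Gzmb and Gzmc were lower in BaPs than in pre-basophils, at -1.04 ± 0.26 (0.0323) and -1.15 ± 0.27 (0.0215), while Ctsg had 0.47 ± 0.33. Both of these calls were lost without any 1 pre-basophil library (up to 0.111 and 0.0900). Like Ctsg, Gzmc was higher in pre-basophils than in BM mature basophils, at 1.15 ± 0.27 (0.00599). All 3 tested genes of the cluster were lower in the spleen than in the BM, against 4.67% of all genes tested. Gzmb was at -2.61 ± 0.28 (0.000611), Gzmc at -3.00 ± 0.33 (0.000611) and Mcpt8 at -1.41 ± 0.24 (0.00606). Mcpt1, Mcpt4 and Gzmd to Gzmg were not tested, with group means of at most 0.495 CPM.

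The profile of the 4 genes over the 12 libraries was shared by many others. Each of the 4 had a Pearson correlation of 0.965 to 0.990 with the mean log2 CPM of the other 3, as a description over libraries that share their groups. Of 9639 genes with a mean of at least 10 CPM in some group, 590 had a correlation above 0.95 with the mean of the 4. The 10 closest were AI662270, Ramp1, Sdf2l1, Mcm4, Rpa2, Cbx5, Erh, Rad18, Hspa13 and Gm10131, with r of 0.990 to 0.996. Mcm4 is a subunit of the replicative helicase, Rpa2 binds single-stranded DNA, and Sdf2l1 is a protein of the endoplasmic reticulum. Their order was not stable, since 2 of the 10 were also in the first 10 by Spearman correlation, and 2 of the 10 without BaP replicate 3. Calr ranked 15, Myb 24, Ms4a3 26 and Prss57 281.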

How the data were processed

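The deposited table holds raw counts per gene, which the authors made from bead-captured poly(A) RNA amplified by the TAS-Seq whole-transcriptome PCR. The submitters' processing notes name cutadapt 3.4 and Bowtie2 2.4.2. They list GRCm39, whereas the study's methods give GRCm38 transcripts (Ensembl release 101), so coordinates here come from GENCODE M21 and RefSeq on GRCm38 and were matched by symbol. Molecular identifiers are not mentioned, so intervals and floors (3 counts) cover counting error only. The sources used here do not say how strand and reads matching several genes were handled.

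All 12 libraries entered 1 edgeR 4.0.16 quasi-likelihood fit (R 4.3.3, filterByExpr, TMM), tested on simulated data beforehand, with calls at a Benjamini-Hochberg adjusted p under 0.05. The study's TCC package was not used. Log2 CPM took a prior count of 2. Elane count ratios have exact conditional binomial intervals. Alternatives used DESeq2 1.42.0, limma 3.58.1 (voom), other scalings and filters, a replicate block, the 2 groups alone and each library left out. The members, lists and tests were chosen with earlier results of these data known. Genes to be named were drawn from the 4 members, each list and the 10 genes most like the members. From each list these were the most abundant tested gene and up to 4 called genes with the largest change. Not every gene so picked is described, and exceptions to the rule are stated.

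The sample titles carry replicate numbers, and the labels do not say whether same-numbered libraries share animals. As a hint from the data, deviations from group means of same-numbered libraries correlated at 0.125 to 0.262 in all 9 marrow pairs, but at 0.000366 to 0.0899 with the spleen. The libraries of a group are separate pools from 1 experiment, and p-values measure the spread between these pools.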

Additional observations from a re-analysis of the deposited data

How the results depend on the processing

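The 4 calls for pre-basophils against BM mature basophils, BaPs against BM mature, BaPs against spleen mature and any difference held under every alternative run, and no fold change of the 4 genes changed sign in any comparison. In BaPs against pre-basophils 3 genes were called, and 1 to 4 with 1 library left out. In spleen against BM mature 2 were called, 1 with limma-voom, and 0 to 2 with 1 library left out. The Mpo call in BaPs against pre-basophils was also lost with DESeq2 size factors (adjusted p = 0.0527), DESeq2's Wald test (0.0658), limma-voom (0.0674) and the 2 groups alone (0.0908). Ctsg was called there with no filter (0.0224) and without BaP replicate 3. The replicate block changed no call of the levels of the 4 genes, in all 12 libraries (Mpo in BaPs against pre-basophils, log2 fold change 1.19, adjusted p = 0.0293) or in the 9 marrow libraries alone (1.14, 0.0224), an alternative added after seeing the data. It ended the adjusted calls on the Ctsg to Mpo and Prtn3 to Mpo read ratios (adjusted p = 0.0573 for both in 12 libraries, 0.167 in the 9 of the marrow, a test added after seeing the data). The cause of these shifts was not tested. Over all genes, the number called in BaPs against pre-basophils was 1068 and ran from 375 (2 groups alone) to 2091 (no filter). In spleen against BM it was 1181 and ran from 241 (without spleen mature replicate 3) to 2340 (2 groups alone). Elane, at 3 counts or fewer in each mature group, and Prtn3, at 18 and 19, limit what can be said of the mature stages, and no molecular identifiers were available to count molecules.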
